A study of Neurospora crassa with 16 samples.

Results

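The transcription factor genes of Neurospora crassa that lie outside the known regulators of plant cell wall enzymes were followed through growth on cellulose in wild type (WT) and △stk-12 mycelia. Members were the genes with an entry in the transcription factor column of the deposited table, less 17 loci set aside as regulators, among them clr-1, clr-2, xlr-1 and cre-1, which control cellulase and xylanase genes. Of 9730 genes, 176 had such an entry, 14 of these were among the loci set aside, and 162 remained. The rule used no measured value.

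RNA was sequenced from mycelia of this filamentous fungus, grown from conidia in constant light on Avicel, a crystalline cellulose that served as carbon source. Each genotype was harvested after 12h, 1d, 3d and 5d, which gave 8 groups of 2 libraries and 16 libraries in all. stk-12 encodes a serine/threonine protein kinase. Whether replicates came from separate cultures is not stated in the labels, and p-values here reflect the library-to-library spread alone, possibly a technical one. Gene reads per library ran from 14946389 to 26466759.

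The labels of the mutant libraries held in part. stk-12 had 905 and 932 reads in WT and 386 and 371 in the mutant at 12h, and at each time both mutant libraries held less of it in CPM than both WT libraries, but it was not absent. The mating type gene matA-1 had 0 reads in all mutant libraries and at least 350 in each WT library, so the effect of the deletion and that of the other differences between these strains cannot be told apart. The mating type genes had no entry in the transcription factor column and are not members.

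Transcription factors bind DNA and raise or lower the transcription of their target genes, and fungi carry large families of them. The Zn2Cys6 family, with a binuclear zinc cluster, is found almost only in fungi, while C2H2 zinc finger, bHLH (basic helix-loop-helix), bZIP (basic leucine zipper), Myb, GATA, forkhead and homeobox proteins are shared with animals or plants. In Neurospora many were given names after the phenotype of their deletion strain in hyphal growth, aerial hyphae, conidia (asexual spores) or sexual development, and others control the use of nitrogen, sulfur, phosphate or single carbon sources.

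The 162 members comprised 63 Zn2Cys6, 52 C2H2, 13 Myb, 10 bHLH and 9 bZIP genes, with 3 each of the forkhead, ARID, GATA and homeobox families and 3 single entries. The deposited annotation called 76 of them hypothetical protein, and 43 had a symbol. A few entries were not DNA-binding regulators by their annotation, such as rco-1, a corepressor with WD repeats, and msp-37, annotated as a splicing factor. Of the 162, 161 passed the filter on low counts, and NCU02323, with 1 read in all libraries together, did not.

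Per unit of gene length, the members were spread over a wide range, and their median lay above that of all 9730 genes in every group. All genes here include the 747 that did not pass the filter on low counts, against 1 of the 162 members. The median RPKM of the members ran from 11.35 in WT at 1d to 21.7 in the mutant at 5d. That of all genes ran from 10.3 in WT at 1d to 17.5 in WT at 5d. In the mutant at 5d the median of all genes was 15.15, the widest gap to the members. The 6 genes with the highest mean RPKM over the 16 libraries were cpc-1 (719.9), zip-1 (626), ada-1 (208), NCU01871 (128), kal-1 (106) and rco-1 (106). cpc-1 is the bZIP activator of amino acid biosynthesis under amino acid starvation, the counterpart of Gcn4 in Saccharomyces cerevisiae.

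The members together took more of the reads late than early, and the mutant reached the higher share later. Their share of gene reads in WT was 1.05% ± 0.0354 (12h), 1.22% ± 0.0147 (1d), 2.03% ± 0.0692 (3d) and 1.99% ± 0.135 (5d; mean ± SD, n = 2 libraries). In the mutant it was 1.17% ± 0.0137, 1.31% ± 0.0562, 1.47% ± 0.0353 and 2.24% ± 0.0614 at the same times. At 3d both WT libraries (1.98 and 2.08%) lay above both mutant libraries (1.498 and 1.45%), and at 5d both mutant libraries (2.28 and 2.19%) lay above both WT libraries (1.90 and 2.09%). The separation at 5d rested on the bHLH gene NCU01871, which alone took 0.261 and 0.250% of the mutant reads: without it, the mutant stood at 2.02 and 1.94% and WT at 1.89 and 2.08%, which overlap, while at 3d WT (1.97 and 2.07%) stayed above the mutant (1.49 and 1.44%). The share rests on library totals, and on that scale the typical gene also moved. The median log2 change of all genes was 0.59 from 1d to 3d in WT and 0.19 from 3d to 5d in the mutant. For mutant minus WT it was -0.25 at 3d and -0.11 at 5d. The rise of the share is thus in part not particular to the members, and no test was run on it.

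The time at which a gene had its highest mean level was read in each genotype, with levels in CPM, read counts scaled to library size by TMM. In WT, 54 of the 161 genes (33.5%) were highest at 3d, against 17.5% of all 8983 genes tested. In the mutant, 19 (11.8%) were highest at 3d, against 16.6% of all genes, and 81 (50.3%) at 5d, against 36.4%. Of the 161, 31 (19.3%) were highest at 3d in WT and at 5d in the mutant, against 8.15% of all genes. With RPKM, which scales by library totals, those 31 became 44 (27.3%, against 12.2%). These shares are descriptions, since neighbouring times often differed by less than the spread between libraries.

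**Figure D1:**
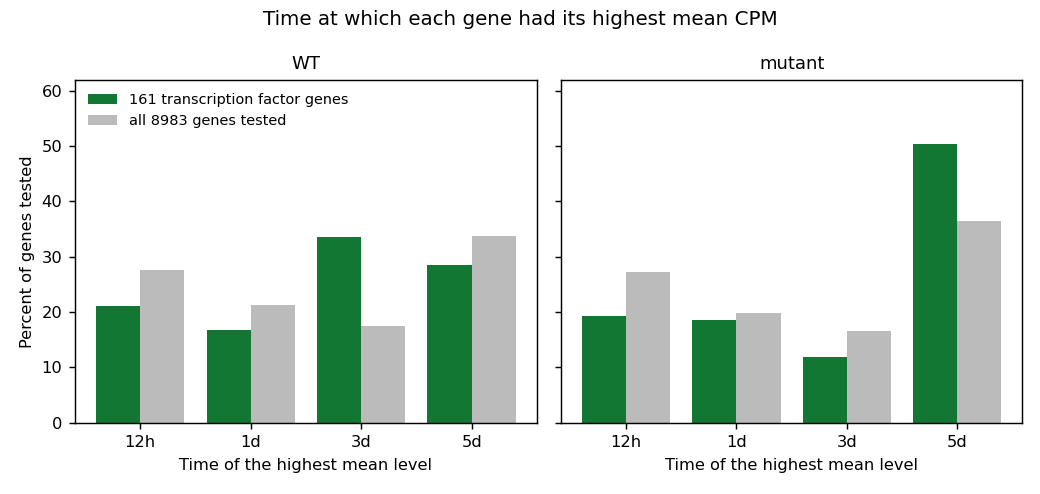
Percent of genes (y axis) whose mean CPM of 2 libraries was highest at each time (x axis), in WT (left) and in the mutant (right). Green bars are the 161 transcription factor genes and grey bars all 8983 genes tested. The green bar at 3d stands at 33.5% in WT and 11.8% in the mutant, and the one at 5d at 50.3% in the mutant.

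At 12h the genotypes differed little, and the transcription factor genes that differed were mostly higher in the mutant. Of the 161 genes, 26 were higher (16.1%) and 4 lower (2.48%) at an adjusted p under 0.05 (edgeR quasi-likelihood test, adjusted over all genes tested), against 6.53% higher and 6.51% lower among all 8983 genes. The median log2 fold change, mutant minus WT, was 0.05 for the members and -0.03 for all genes. Of the 7 factors of nutrient use, 4 were higher and 0 lower, with a median of 0.26, but of the 9 alternatives run on each call, qa-1F lost its call in 6, sre in 4 and nuc-1 in 3, and only acu-15 kept it in all. These were acu-15, which activates acetate utilisation genes, qa-1F, which activates the quinic acid cluster, sre, annotated as a siderophore regulator, and nuc-1, which activates phosphate acquisition genes.

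acu-15 stood at 273 and 313 CPM in the WT libraries and at 459.8 and 473 in the mutant libraries at 12h, with no overlap (log2 fold change 0.67 ± 0.11 (SE), edgeR adjusted p = 0.000739). Genes are ranked by size, here and below, among those called with at least 5 CPM in the higher group and no overlap between groups. The largest difference was that of NCU03643, a Zn2Cys6 gene annotated as cutinase transcription factor 1 beta. It stood at 50.1 and 56.4 CPM in WT and at 95.6 and 119 in the mutant, a log2 fold change of 1.01 ± 0.0963. Smaller rises were seen for NCU06487 (0.65), the Myb gene NCU09329 (0.55), NCU05411, annotated as a pathway-specific nitrogen regulator (0.54), and the bHLH gene NCU02724 (0.51).

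The 4 lower genes at 12h were NCU05909 (-0.72), NCU08443 (-0.68), NCU05285 (-0.37) and bek-2 (-0.25). A development list held 24 members named after growth, conidial or sexual phenotypes, but not all such members. It left out acon-4, col-27, sub-2 and vad-6, while asl-1 was placed in a stress list and ts in both lists. Of these 24 genes, 4 were higher and 1 lower at 12h, against 6.53% and 6.51% of all genes. These 12h counts moved with single libraries: leaving out WT 12h replicate 1 left 10 members called, and leaving out mutant 12h replicate 2 left 16, against 30 in all. Of the 20 named calls at 12h, 7 were kept under every alternative run, those of NCU02724, NCU02752, NCU03643, NCU05411, NCU05909, NCU09329 and acu-15, while those of qa-1F, sre, nuc-1 and bek-2 were lost under 1 or more.

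At 1d the differences were larger and ran in both directions. Of the 161 genes, 49 were higher (30.4%) and 28 lower (17.4%) in the mutant, against 19.1% and 18.0% of all genes (37.1% in either direction). Scaling by library totals in place of TMM gave 76 higher and 13 lower, with a median of all genes of 0.18, against 0.02 with TMM. The median of the members was 0.07. The Zn2Cys6 family had 22 higher and 9 lower of 63, and the bHLH family 2 higher and 4 lower of 10, which became 5 higher and 3 lower with library totals.

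The largest difference at 1d was that of NCU01871, a bHLH gene annotated as hypothetical protein. The WT libraries held 28.2 and 28.0 CPM at 12h, 928 and 826 at 1d, 81.3 and 82.0 at 3d, and 74.0 and 68.3 at 5d. In the mutant it stood at 34.3 and 32.8, 32.0 and 199.7, 48.4 and 59.3, and 2253 and 2217 CPM at the same times. It was thus high in WT at 1d and in the mutant at 5d, and in no other group did a library pass 199.7 CPM.

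The 2 mutant libraries at 1d differed widely for NCU01871, so that its log2 fold change of -2.92 ± 0.46 (edgeR adjusted p = 0.000188) was -2.13 without mutant 1d replicate 1 and -4.78 without mutant 1d replicate 2. Both mutant libraries still lay below both WT libraries. At 5d its log2 fold change was 4.97 ± 0.504 (3.78e-07), and the libraries of each genotype agreed closely.

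NCU05970, another bHLH gene, was likewise highest at 1d in WT and at 5d in the mutant. In WT it stood at 66.7 and 67.0 CPM at 12h, 221 and 223 at 1d, 86.4 and 92.4 at 3d, and 64.5 and 66.2 at 5d. In the mutant it stood at 66.6 and 78.9, 89.0 and 135, 112 and 116, and 225 and 229.9 CPM. Its log2 fold changes were -0.98 ± 0.128 at 1d, 0.35 ± 0.128 at 3d and 1.80 ± 0.131 at 5d, and the genotypes overlapped at 12h only.

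Further genes with their highest WT level at 1d were lower in the mutant at that time. tah-1, a Zn2Cys6 gene, stood at 278 and 279 CPM in WT and at 117 and 153 in the mutant (-1.04 ± 0.0888, edgeR adjusted p = 4.45e-07). pacc-1, the factor that responds to ambient pH, stood at 462 and 464 CPM in WT and at 242 and 327 in the mutant (-0.70 ± 0.103). rpn-4, whose namesake in Saccharomyces cerevisiae activates proteasome genes, stood at 76.7 and 76.4 CPM in WT and at 32.7 and 46.6 in the mutant (-0.95 ± 0.118). None of these overlapped between genotypes at 1d, and at 12h tah-1 and pacc-1 were not called while rpn-4 was higher in the mutant (0.48 ± 0.12). For tah-1, pacc-1 and rpn-4, as for NCU01871 and NCU05970, mutant 1d replicate 2 lay nearer WT than mutant 1d replicate 1. The size of these differences at 1d thus shares the same disagreement between libraries. The C2H2 gene NCU01629 (-1.39), also highest in WT at 1d, was lower as well. So was the Zn2Cys6 gene NCU08901 (-1.35), although its WT mean was 11.3 CPM at 1d and 45.3 at 3d. The call of NCU08901 was lost without mutant 1d replicate 1, WT 1d replicate 1 or WT 1d replicate 2.

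Among the genes higher in the mutant at 1d was adv-1, a Zn2Cys6 regulator of cell fusion and sexual development. WT held 115 and 120.0 CPM and the mutant 243 and 255, a log2 fold change of 1.09 ± 0.126 (edgeR adjusted p = 1.07e-05). qa-1F differed by 1.04 ± 0.136 at this time and was at the low levels of 5.30 and 4.58 CPM in WT and 10.6 and 9.77 in the mutant. The C2H2 gene NCU02487 had the largest positive value (1.45 ± 0.175), followed by NCU00038 (1.25), and NCU10080 (0.85) and NCU03417 (0.69) were also higher.

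At 3d the balance turned, and most transcription factor genes that differed were lower in the mutant. Of the 161, 23 were higher (14.3%) and 64 lower (39.8%), against 29.4% and 30.0% of all genes (59.5% in either direction). The median log2 fold change was -0.15 for the members and -0.02 for all genes. Scaling by library totals gave 14 higher and 104 lower, with a median of all genes of -0.25. In bulk libraries, fewer cells of a type and less RNA per cell cannot be told apart.

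**Figure D2:**
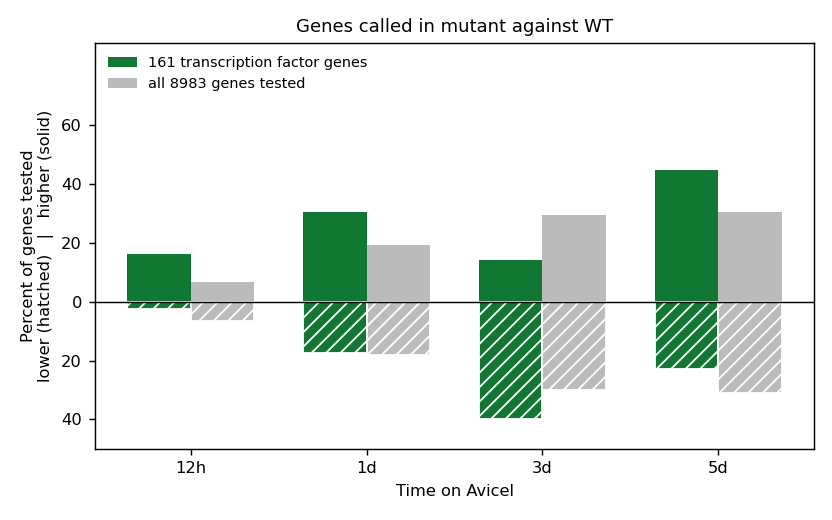
Percent of genes called in the mutant against WT (y axis; higher above 0, lower hatched below 0) at each time on Avicel (x axis). Green bars are the 161 transcription factor genes and grey bars all 8983 genes tested. The green bars below 0 reach 39.8% at 3d, and those above 0 reach 44.7% at 5d.

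Among genes with at least 5 CPM in the higher group, the largest negative value at 3d was that of NCU08634. This gene, a forkhead member, stood in WT at 5.42 and 8.99 CPM at 12h, 12.7 and 11.2 at 1d, 95.9 and 106 at 3d, and 37.3 and 36.2 at 5d. In the mutant it stayed at 6.65 and 6.06, 8.13 and 13.3, 10.2 and 11.4, and 11.8 and 12.5 CPM. At 3d no mutant library came near WT, and the log2 fold change was -3.22 ± 0.175 (edgeR adjusted p = 1.12e-10).

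The C2H2 genes NCU10006 and NCU03552 differed in the same direction. NCU10006 stood at 48.0 and 55.0 CPM in WT and at 7.82 and 6.54 in the mutant at 3d (-2.84 ± 0.148), although it had been higher in the mutant at 1d (0.62 ± 0.144). NCU03552 stood at 23.2 and 24.3 CPM in WT and at 3.86 and 2.84 in the mutant at 3d (-2.83 ± 0.183). The Zn2Cys6 gene NCU08901 (-2.24 ± 0.279) and the C2H2 gene NCU01629 (-2.12 ± 0.207) followed.

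sah-1, a C2H2 gene named after short aerial hyphae, had a peak at 3d in WT that the mutant did not show. WT held 74.5 and 103 CPM at 12h, 74.5 and 75.4 at 1d, 241 and 249.6 at 3d, and 83.9 and 66.7 at 5d. The mutant held 109 and 100.3, 54.4 and 67.4, 53.2 and 53.9, and 91.5 and 91.6 CPM. The log2 fold change at 3d was -2.20 ± 0.131 (edgeR adjusted p = 3.6e-10), while at 5d it was 0.28 ± 0.128 and did not pass the test (0.066).

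Of the 24 genes of the development list, 1 was higher at 3d and 11 lower, with a median of -0.24. Among the 161 members 14.3% were higher and 39.8% lower, and among all genes 29.4% and 30.0%. With library totals alone, 0 of the 24 were higher and 19 lower. On that scale 14 of the 161 members were higher and 104 lower, and the median of all genes was -0.25. With TMM, lower genes of the list beside sah-1 included ada-6 (-1.41), bek-2 (-1.31), col-22 (-1.29), kal-1 (-0.68), tah-1 (-0.61) and tah-3 (-0.54). ada-1 was the 1 higher member of the list (0.25 ± 0.0698), and it lost its call with library totals alone. Outside the list, acon-4, asl-1, col-27, sub-2 and vad-6 were not called at 3d, and chc-1 was higher. All 3 homeobox genes were lower, NCU03070 (-0.87), kal-1 and NCU03266 (-0.62).

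Marker genes of other cell types also differed between the genotypes. The summed level of 6 conidiation genes (con-6, con-8, con-10, con-13, eas and ccg-9), none of which was at 0, ran from 2318 to 2330 CPM in WT at 3d and from 995 to 1078 in the mutant, and from 1139 to 1686 in WT and 2395 to 2409 in the mutant at 5d. Within the list the genes did not move together. At 3d ccg-9 was higher in the mutant (572 to 639.8 CPM, against 312.6 to 337.3 in WT), while the others were lower. At 5d con-8 and ccg-9 were higher in the mutant, and con-6, con-10, con-13 and eas were lower. At that time con-8 ran from 1449 to 1528 CPM in the mutant and from 374 to 525 in WT. For eas, the hydrophobin gene of the conidial coat, the mutant ran from 1.88 to 3.58 and WT from 26.5 to 52.6. The sum of the sexual tissue genes poi-2, app and fmf-1 ran from 173 to 183 CPM in WT and from 46.1 to 48.4 in the mutant at 3d, and from 246 to 248 and 61.4 to 62.7 at 5d. These genes did not move together either: at 5d fmf-1 ran from 183 to 191 CPM in WT and from 26.4 to 28.8 in the mutant, while app ran from 28.9 to 32.8 in both. app was at 0 in the mutant at 1d. Another listed gene, poi-1, was left out of the sum since its name led to the locus of the mating pheromone gene mfa-1. It went the other way: at 3d it ran from 4432 to 5956 CPM in the mutant and from 14.6 to 17.9 in WT. At 5d it ran from 3356 to 3542 CPM in the mutant and from 20.4 to 22.3 in WT. With poi-1 included, the sum was thus higher in the mutant, at 3d from 4480 to 6002 CPM against 190.8 to 197.7 in WT. The part of other cell types in the result was not tested.

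A smaller set was higher in the mutant at 3d. NCU02487 stood at 27.4 and 29.2 CPM in WT and at 69.6 and 77.4 in the mutant, a log2 fold change of 1.38 ± 0.136 (edgeR adjusted p = 2.21e-07), close to its value of 1.45 at 1d, and at 5d the genotypes overlapped. NCU03421 (1.21), NCU03417 (1.19), NCU01097 (1.17), NCU01209 (0.98) and the bHLH gene NCU00144 (0.85) were the next. All but NCU03421, NCU02487 and NCU00144 belong to the Zn2Cys6 family.

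cpc-1, the most abundant member per gene length, was also higher in the mutant at 1d (0.60 ± 0.0955) and 3d (0.57 ± 0.0953). WT held 1453 and 1249 CPM at 12h, 1057 and 1042 at 1d, 1208 and 1179 at 3d, and 1153 and 1318 at 5d. The mutant held 1468 and 1589, 1715 and 1476, 1855 and 1677, and 714 and 760.0 CPM. At 5d it lay below WT in every library (-0.75 ± 0.0957, edgeR adjusted p = 5.32e-06). It was the only member called higher at 3d and lower at 5d, an order that 5.21% of all genes showed.

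At 5d the higher genes led again. Of the 161, 72 were higher (44.7%) and 37 lower (23.0%), against 30.6% and 30.9% of all genes (61.6% in either direction). The median was 0.11 for the members and -0.01 for all genes. Scaling by library totals gave an even split, 49 higher and 48 lower (97 in all, against 118 at 3d), with a median of all genes of -0.11, so the lead of higher genes, and the rank of 5d above 3d by number of genes called, depended on the scaling.

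The bHLH family was the clearest group at 5d and kept its count under each scaling. Of 10 genes, 8 were higher and 1 lower, against 30.6% and 30.9% of all genes with TMM. The median was 0.73 with TMM, 0.62 with library totals and 0.72 with DESeq2 size factors. Beside NCU01871 and NCU05970, the higher genes were NCU00144 (1.24), sah-2 (1.22), NCU06744 (0.74), nuc-1 (0.71), chc-1 (0.54) and NCU02724 (0.54). NCU08999 was lower (-0.28), and NCU02957 had -0.12 and was not called.

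The 8 higher genes differed in their calls at earlier times, and sah-2, named after short aerial hyphae, shared its own pattern (lower at 1d, not called at 3d, higher at 5d) with NCU01871 alone among them. For sah-2, WT held 136 and 137 CPM at 12h, 202 and 176 at 1d, 227 and 250.5 at 3d, and 174 and 187 at 5d. The mutant held 148 and 134, 147 and 146, 219 and 221, and 433 and 409.9 CPM. The genotypes lay close at 3d (-0.12 ± 0.0756, edgeR adjusted p = 0.19) and far apart at 5d (1.22 ± 0.0765, 1.2e-09).

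Of the 24 genes of the development list, 11 were higher and 7 lower at 5d, which became 6 and 7 with library totals. With TMM, the shares higher and lower were 44.7% and 23.0% among the 161 members and 30.6% and 30.9% among all genes. sub-1, a GATA factor named after submerged protoperithecia, the young female organs, stood at 52.5 and 62.2 CPM at 3d and at 103 and 93.1 at 5d in the mutant, while WT held 65.0 and 68.5 and then 40.7 and 42.5. Its log2 fold change at 5d was 1.23 ± 0.104 (edgeR adjusted p = 4.56e-08). ada-1 stood at 544 and 537 CPM in WT and at 1025 and 1079 in the mutant (0.96 ± 0.0702), vad-5 differed by 0.73 and ff-7, named after female fertility, by 0.55. The 7 lower genes were col-22 (-1.39), ada-5 (-0.80), ada-6 (-0.69), bek-2 (-0.56), tah-3 (-0.47), tah-2 (-0.43) and ada-4 (-0.41).

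Among the nutrient factors 4 of 7 were higher at 5d and 2 lower, against 30.6% and 30.9% of all genes. cys-3, the activator of sulfur assimilation, stood at 161 and 160.4 CPM in WT and at 293 and 276 in the mutant (0.83 ± 0.0694, edgeR adjusted p = 4.29e-08). pacc-1 differed by 0.80 ± 0.104, nuc-1 by 0.71 ± 0.0739 and acu-15 by 0.36 ± 0.111, the last of which lost its call with library totals alone and without WT 5d replicate 2. The lower ones were cpc-1 and qa-1F (-0.41 ± 0.102). The 3 genes of the stress list, asl-1 (0.32), ts (0.25) and msn-1 (0.37), were all higher, and none was called with library totals alone.

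zip-1, a bZIP gene and the second member by RPKM, was lower in the mutant late in growth. WT held 516 and 519 CPM at 12h, 672 and 656 at 1d, 1534 and 1583 at 3d, and 1813 and 1985 at 5d. The mutant held 533 and 523, 599 and 588, 926 and 1005, and 921 and 872 CPM. The log2 fold change was 0.03 at 12h and -0.16 at 1d, neither of them called, and then -0.69 ± 0.0695 at 3d and -1.08 ± 0.07 at 5d (edgeR adjusted p = 1.78e-09). col-22, a Zn2Cys6 gene, stood at 414 and 351 CPM in WT and at 143 and 149.9 in the mutant at 5d (-1.39 ± 0.0943). NCU03552 (-2.04), NCU08634 (-1.59) and NCU10006 (-1.55) were lower at 5d as at 3d, and NCU02142 (-0.97) was also lower.

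**Figure D3:**
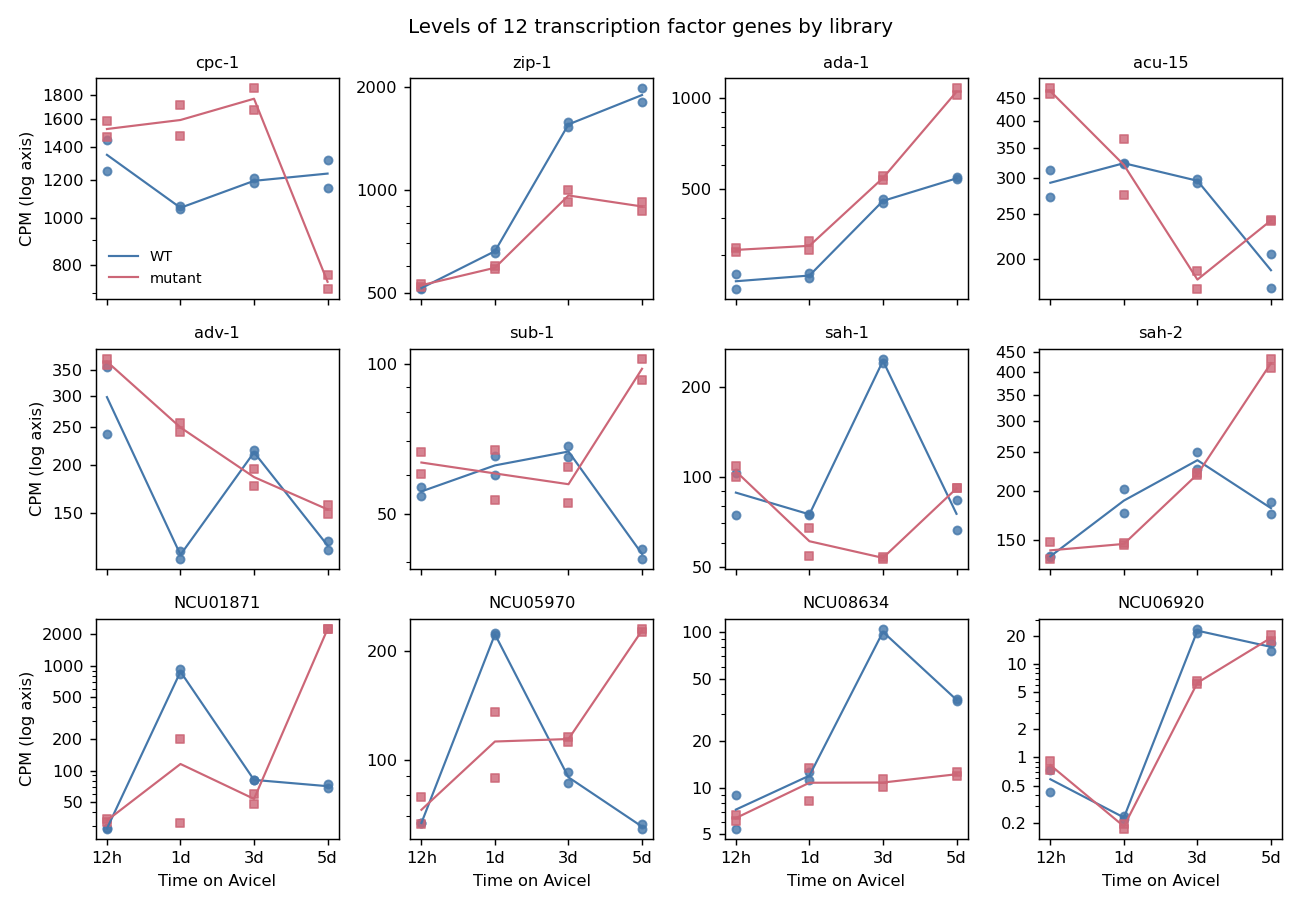
CPM (log axis) of 12 transcription factor genes against time on Avicel. Blue circles are WT libraries, red squares mutant libraries, and lines join the means of 2 libraries. NCU01871 is high in WT at 1d (928 and 826 CPM) and in the mutant at 5d (2253 and 2217), and cpc-1 drops in the mutant at 5d (714 and 760.0).

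Set side by side, the calls at 3d and 5d gave several patterns, of which some are given here. Of the 161 genes, 24 were lower in the mutant at both times (14.9%), near the 15.6% of all genes. At both times 16 were higher, against 13.8% of all genes. A further 18 (NCU05411, acu-15, nuc-1, ff-7, ts and NCU06920 among them) were lower at 3d and higher at 5d, against 5.11% of all genes. With library totals alone the number lower at both times was 38 (23.6%, against 22.8% of all genes), and the number lower and then higher was 24 (14.9%, against 7.48%).

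**Figure D4:**
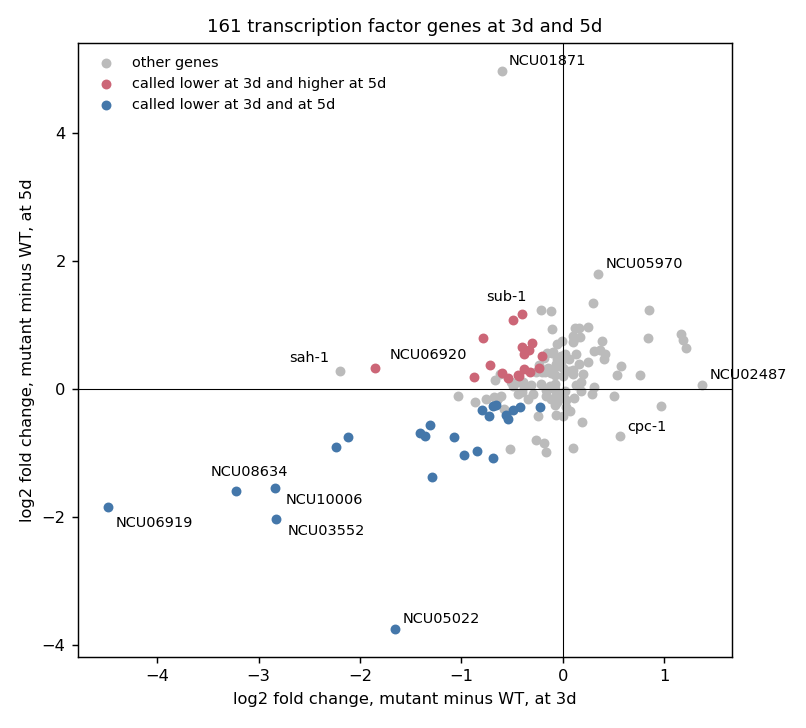
Log2 fold change, mutant minus WT, at 3d (x axis) and at 5d (y axis), with 1 point per transcription factor gene (161). Red points were called lower at 3d and higher at 5d (18), blue points lower at both (24) and grey points are the other genes. NCU01871 lies alone at the top (4.97 at 5d), and the value of NCU05022 at 5d rests on 14 reads in WT and 1 in the mutant.

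The neighbouring C2H2 genes NCU06919 and NCU06920 on chromosome VII (assembly NC12, RefSeq), next to each other in that annotation, differed in their course. Both were lower in the mutant at 3d. At 5d NCU06919 was still lower (log2 fold change -1.845), while NCU06920 was higher (0.32). NCU06919 had 91 and 65 reads in WT and 1 and 5 in the mutant at 3d, a ratio of CPM of 23.4 (95% interval 10.5 to 64.7, exact and for counting error only). NCU06920 stood at 24.0 and 21.6 CPM in WT and at 6.09 and 6.54 in the mutant at 3d (-1.85 ± 0.141, edgeR adjusted p = 8.09e-09), and at 16.8 and 13.8 and 17.9 and 20.3 CPM at 5d (0.32 ± 0.13, 0.0409).

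Over the 4 times, 45 members were called higher at 1 time and lower at another (27.1% of all genes were), 10 were called at none (12.2% of all genes), and 5 at all 4 (3.93%). Of the last, ada-1, chc-1 and NCU02752 were higher at each time, while NCU02576 and nuc-1 changed direction. Each of the 5 lost a call under some alternative. Of 9 alternatives for each call, NCU02576 lost that at 12h in 7 and that at 1d in 2, nuc-1 that at 12h in 3 and that at 3d in 1, and chc-1 that at 12h in 2. ada-1 lost its call at 12h in 1 and at 3d in 1, and NCU02752 at 1d in 2 and at 3d in 1, both of those at 3d with library totals alone. Among the 10 never called were col-23, fld and the Myb gene NCU09197.

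The genotype difference was itself unequal over the 4 times for 137 of the 161 genes (85.1%), against 77.5% of all genes (edgeR F test on 3 degrees of freedom, adjusted p under 0.05). The smallest adjusted p-values were those of NCU10006, NCU00144, NCU01478, NCU02182, sah-2 and NCU05411. NCU01478, a Zn2Cys6 gene, showed the shape plainly. WT held 59.6 and 57.3 CPM at 12h, 60.2 and 58.8 at 1d, 101 and 107 at 3d, and 103 and 102 at 5d. The mutant held 60.7 and 62.2, 65.7 and 68.9, 126 and 129, and 264 and 253 CPM, so that the log2 fold change went from 0.07 at 12h to 1.33 ± 0.0585 at 5d.

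In WT the largest change in time was the rise from 1d to 3d. From 12h to 1d, 48 of the 161 genes rose and 55 fell, against 26.1% and 30.7% of all genes (56.8% in either direction). From 1d to 3d, 96 rose (59.6%) and 32 fell (19.9%), against 41.9% and 37.1% (79.0% in either direction), and scaled by library totals 128 rose and 12 fell, with a median of all genes of 0.59 against 0.11 with TMM. From 3d to 5d, 31 rose and 56 fell (19.3 and 34.8%), against 27.1% and 27.5% (54.6% in either direction).

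The rises from 1d to 3d in WT included most genes of the development list. Of these 24, 18 rose and 2 fell (median 0.59), against 41.9% and 37.1% of all genes. NCU06920 had 3 and 3 reads at 1d and 581 and 462 at 3d, a ratio of CPM of 100.6 (95% interval 46.1 to 275, exact and for counting error only). NCU08634 rose by 3.08 ± 0.182, the forkhead gene NCU06173 by 2.24 ± 0.0933 and the C2H2 gene NCU04628 by 2.06 ± 0.0635. Among genes above the 5 CPM limit, the largest falls at this step were those of NCU01871 (-3.42), NCU08443 (-2.30), pacc-1 (-1.67 ± 0.106) and NCU05970 (-1.31).

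From 12h to 1d the WT rises were led by NCU01871 (4.97 ± 0.513), NCU08901 (2.15), NCU05970 (1.73) and tah-1 (1.60), and the falls by NCU06919 (-2.26), NCU00038 (-1.62), adv-1 (-1.35) and qa-1F (-1.002). From 3d to 5d the largest falls within that limit were those of sah-1 (-1.70 ± 0.128), the homeobox gene NCU03266 (-1.54), NCU10006 (-1.49) and NCU08634 (-1.45), all lower in the mutant than in WT at 3d. The rises at that step were smaller, with NCU05767 at 1.06, col-23 at 1.01, NCU02853 at 0.96 and NCU08999 at 0.90.

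In the mutant the step with the most one-sided change came later. From 12h to 1d, 40 of the 161 genes rose and 33 fell, against 21.4% and 19.3% of all genes (40.7% in either direction). Scaled by library totals, 52 rose and 20 fell, with a median of all genes of 0.10. From 1d to 3d, 62 rose and 54 fell (38.5 and 33.5%), against 35.6% and 37.0% (72.6% in either direction). From 3d to 5d, 76 rose (47.2%) and 20 fell (12.4%), against 31.7% and 31.2% (62.9% in either direction). Scaled by library totals, 108 rose and 13 fell, with a median of all genes of 0.19 against 0.01 with TMM. Steps in the genotypes share no libraries, but the difference between them was tested only as the genotype by time result above.

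**Figure D5:**
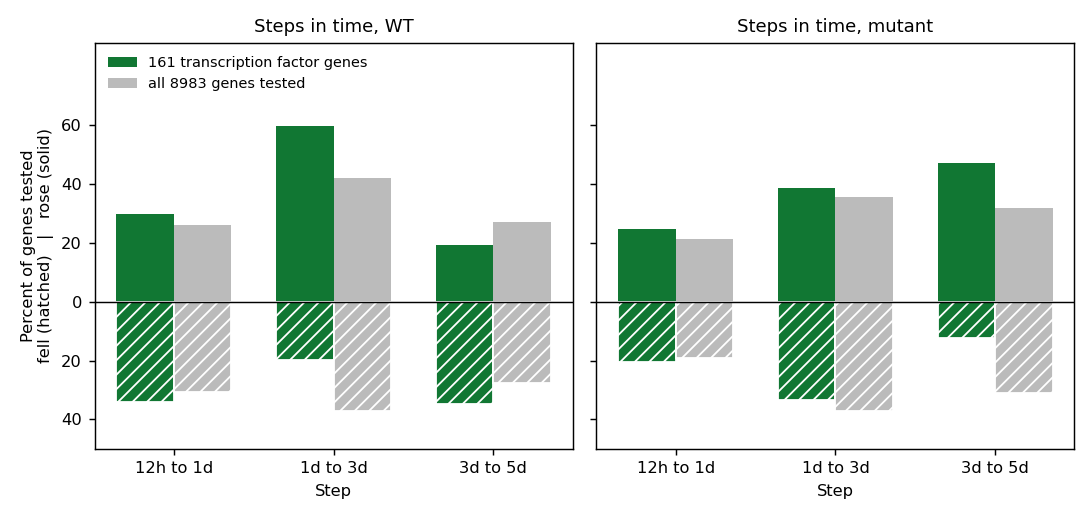
Percent of genes that rose (solid, above 0) or fell (hatched, below 0) between neighbouring times (x axis), in WT (left) and in the mutant (right). Green bars are the 161 transcription factor genes and grey bars all 8983 genes tested. The highest green bar is at 1d to 3d in WT (59.6%) and at 3d to 5d in the mutant (47.2%).

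At the step from 3d to 5d in the mutant, 9 of the 10 bHLH genes rose and 0 fell under each scaling. Among all genes, 31.7% rose and 31.2% fell with TMM. The median of the bHLH genes was 0.67 with TMM and 0.845 with library totals, against 0.01 and 0.19 for all genes. NCU01871 rose by 5.37 ± 0.515, NCU08901 by 1.95, the Zn2Cys6 gene NCU02307 by 1.73 ± 0.0999 and NCU06920 by 1.60. NCU02307 stood at 178 and 188 CPM at 3d and at 627 and 587 at 5d. Within the ranking limit cpc-1 had the largest fall (-1.26 ± 0.0965), followed by NCU12126 (-1.20), NCU02487 (-1.06) and NCU02142 (-0.87).

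At the earlier steps in the mutant, NCU02487 (1.70), the Myb gene NCU09197 (1.58), NCU07952 (0.97) and NCU05909 (0.97) led the rises from 12h to 1d, and NCU06919 (-3.09), NCU03552 (-1.12), sah-1 (-0.78) and NCU02724 (-0.63) the falls. From 1d to 3d, NCU06920 went from 3 and 3 reads to 123 and 136, NCU07180 rose by 2.15, NCU05909 by 1.74 and NCU06173 by 1.57. NCU10006 (-2.01), NCU08443 (-1.80), NCU03266 (-1.71) and NCU01629 (-1.41) had the largest falls within the ranking limit. NCU10006 and NCU03266 thus fell in the mutant 1 step before their largest fall in WT.

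A few genes had little or no call between genotypes. NCU07180, a Zn2Cys6 gene, stood in WT at 2.38 and 2.64 CPM at 12h, 7.05 and 5.31 at 1d, 20.7 and 22.0 at 3d, and 37.2 and 38.0 at 5d. In the mutant it stood at 3.58 and 3.60, 5.04 and 5.81, 24.1 and 24.3, and 39.1 and 41.3 CPM, with log2 fold changes between -0.18 and 0.52 and no call at any time or for genotype by time (edgeR adjusted p = 0.0618). rco-1 stood between 199.6 and 405 CPM in all libraries. It passed the genotype by time test (edgeR adjusted p = 0.0113), and its 1 call at a single time, of 0.20 ± 0.0621 at 5d, was lost with library totals alone and without WT 5d replicate 2 or mutant 5d replicate 2.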

How the data were processed

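RNA-seq of N. crassa mycelia was compared between 2 genotypes at 4 times, with groups taken from the labels. The deposited table held read counts per gene and RPKM values for 16 libraries, per the file headers. TopHat2 (2.0.8b) and HTSeq (0.5.4p3) were named as tools, per the submitters' processing notes. Genome build and strand are not given in the sources used here, so overlapping, antisense and near-identical genes are uncertain. All 146267 RPKM values above 0 deposited by the authors equalled the count divided by gene length and library total, within a relative tolerance of 0.001. RPKM served to compare levels between genes, to give medians per group and as a second scale for the time of the highest level. In 2 libraries, 6 entries named no gene and were left out, with 6.86% of reads (WT 3d replicate 2) and 4.43% (mutant 5d replicate 1).

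Deposited counts were analysed in R (4.3.3) with edgeR (4.0.16): filterByExpr (8983 genes kept, 747 removed), TMM (factors 0.840 to 1.25), a mean for each group and quasi-likelihood tests. There were 8 residual degrees of freedom, and the common biological coefficient of variation was 0.0685. Benjamini-Hochberg adjustment ran over the 8983 genes, with 0.05 as threshold. SE was obtained from the log2 fold change and its F value (absolute change over root F). The fit was tested on simulated data. Replicates differed by more than sampling noise (chi-square per degree of freedom 3.93 to 22.4). All 162 members were in the RefSeq table (assembly NC12), which supplied symbols.

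Alternatives were library totals alone, DESeq2 size factors, DESeq2 (1.42.0), no filter, a replicate block and leaving out each library. Shares of all genes called at single times and steps were counted with TMM alone. Named genes were the 6 largest differences in each direction per time (4 per step) at 5 CPM or more in the higher group without overlap, the 6 smallest p-values for genotype by time, the 6 highest RPKM and the members of the role lists. Others named, in patterns, families or by annotation, were chosen after their values were seen. The members and lists were chosen with earlier results of these data known.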

Additional observations from a re-analysis of the deposited data

Results flagged for a closer look

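The genotype difference changed over the 4 times for 137 of 161 transcription factor genes, by the edgeR F test on 3 degrees of freedom, against 77.5% of all genes. The 6 smallest adjusted p-values among these began with NCU10006 (adjusted p = 2.21e-09), which turned from 0.62 at 1d to -2.84 at 3d, NCU00144 (2.61e-09), from -0.42 at 1d to 1.24 at 5d, and NCU01478 (4.55e-09), from 0.07 at 12h to 1.33 at 5d. The same test gave NCU02182 (8.91e-09), from -0.49 at 3d to 1.08 at 5d, sah-2 (1.06e-08), from -0.37 at 1d to 1.22 at 5d, and NCU05411 (1.27e-08), from -0.40 at 3d to 1.17 at 5d. All values are log2 fold changes, mutant minus WT.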

How the results depend on the processing

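Under library totals alone 38 genes were lower in the mutant at 3d and at 5d, against 24, and the alternatives for this pattern and for the one lower at 3d and higher at 5d were chosen after seeing the data. The latter ranged from 12 to 17 genes when single libraries were left out. Under the same omissions the number of genes called ranged from 10 (without WT 12h replicate 1) to 24 at 12h, against 30, with 16 without mutant 12h replicate 2. Other counts ranged from 54 to 68 at 1d, 77 to 83 at 3d, 87 to 99 at 5d, and 128 to 137 for genotype by time, all within 1.5 times the full count. Where an omission left a group with 1 library, that library was assumed to vary like the other groups. With the replicate block the counts were 25, 74, 87 and 104 at the 4 times and 135 for genotype by time. Deviations of same-numbered libraries correlated between -0.037 and 0.021, so the numbers were not taken as pairs. Of 170 results for named genes, none turned in direction. Calls were lost in 16 with library totals, 4 with DESeq2, 4 with the replicate block and 2 with DESeq2 size factors, and in 72 of 752 refits that left out a library. The cause was not tested. Low reads limited NCU06919, NCU06920 and NCU05022, whose ratios rest on 6 or 1 reads in the lower group.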
